A study of Homo sapiens with 18 samples.

Results

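The 9 genes described here code for enzymes that make serine and pass its carbon to folate: PHGDH, PSAT1, PSPH, SHMT1, SHMT2, MTHFD1, MTHFD2, MTHFD1L and ALDH1L2. They were taken by name, as 9 of the 23250 gene symbols measured, by a rule that uses no value, although earlier results of these data were known when the genes were chosen. Their RNA was sequenced in 3 human lines of diffuse large B cell lymphoma, SUDHL6, Farage and SUDHL4. Each line was given DMSO, the vehicle, or 10 µM of a compound that inhibits BCL6, named 79-6.1085, for 12 h. BCL6 is a transcriptional repressor of germinal centre B cells. Each of the 6 groups held 3 libraries, and the labels name no allele, added gene or other agent. Whether the 3 replicates of a group were grown apart is not stated, and the p-values therefore rest on a spread between libraries that may be technical. Each line is a single established culture, and differences between lines are differences between those cultures.

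Serine is made in the cytosol from a glycolytic intermediate in a short chain of reactions. PHGDH oxidises 3-phosphoglycerate, PSAT1 moves an amino group onto the product, and PSPH removes the phosphate. Serine hydroxymethyltransferase then splits serine into glycine and a single carbon carried by tetrahydrofolate, in the cytosol by SHMT1 and in mitochondria by SHMT2. Mitochondria oxidise that carbon through MTHFD2 and release it as formate through MTHFD1L, or oxidise it to carbon dioxide through ALDH1L2. In the cytosol the single protein MTHFD1 recharges folate with formate and interconverts the carried forms. The carbon ends in purines, thymidylate and methionine. Dividing lymphocytes are known for drawing on this route for nucleotide synthesis.

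The deposited values are CPM (read counts scaled to a common total), and whole read numbers could be recovered from them. The listed genes held 6289956 to 25492726 reads per library. Replicate 3 of both SUDHL6 groups was the shallowest, at 6289956 and 7359083 reads, and the other 16 libraries held at least 16867228. In the shallowest library 3 reads equal 0.362 CPM. All 7 markers of B cells were above 1 CPM in each library, with summed levels of 3740 to 6810 CPM in DMSO and 2100 to 4380 CPM in treated libraries. The summed T cell, myeloid and epithelial markers stayed at or under 2.88 CPM. The fibroblast list of 5 genes reached 66.6 CPM in SUDHL4 DMSO and 20.5 CPM in treated SUDHL4, nearly all of it DCN, while COL1A2, COL3A1 and LUM were under 1 CPM in each library. Its part in the results was not tested. In such bulk RNA, fewer cells of a type and less RNA per cell cannot be told apart.

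Inhibitor treatment split the enzymes. PSAT1 and MTHFD2 rose in each of the 3 lines, and SHMT1 and MTHFD1, the cytosolic folate enzymes, fell in each of the 3 lines. PSPH was called lower in SUDHL6 and SUDHL4 and higher in Farage, and MTHFD1L was called lower in SUDHL6 and higher in Farage. Of these calls only the PSPH rise in Farage held under all alternative settings. PHGDH rose in Farage and was hardly read in SUDHL4 under either condition. SHMT2, the mitochondrial counterpart of SHMT1, had changes of -0.37, -0.14 and -0.03 on the log2 scale, called in SUDHL6 alone. Changes are treated minus DMSO on the log2(CPM + 1) scale from limma fitted over 12769 genes, where the added 1 understates the change of weakly read genes, and a gene is called at a Benjamini-Hochberg adjusted p under 0.05.

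In SUDHL6, 2 of the 9 enzymes were called higher and 5 lower (22.2% and 55.6%), where 26.8% and 41.3% of all genes tested were called. In Farage 5 were higher and 2 lower (55.6% and 22.2%), against 25.4% and 46.5% of all genes. In SUDHL4 the counts were 2 and 3 (22.2% and 33.3%), against 24.3% and 46.2%. For the mean response of the lines they were 3 and 3 (33.3% each), with PHGDH, PSAT1 and MTHFD2 higher and SHMT1, MTHFD1 and SHMT2 lower, against 30.1% and 53.8%. The enzymes called higher in all 3 lines at once were 2 of 9 (22.2%), as were those called lower in all 3, where 14.7% and 28.3% of all genes were. With 9 genes these counts were not tested as a set, and nothing is read from them about the enzymes as a whole. All 9 passed the filter of at least 1 CPM in at least 3 libraries, but ALDH1L2 did so through Farage alone.

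Counted by separation of the libraries, treated SUDHL6 lay wholly above DMSO in 2 enzymes and wholly below it in 4, where 24.4% and 36.5% of all genes did so. The counts were 6 above and 2 below in Farage (30.6% and 53.2%) and 3 above and 4 below in SUDHL4 (28.9% and 51.6%). The SUDHL4 count above includes PHGDH, with 3 to 6 reads per library there. Replicate 1 of DMSO and of inhibitor both held 3 reads, at 0.1095 and 0.1107 CPM, so its separation rests on depth and is not read. The Farage count above includes ALDH1L2, which passed the filter through that line alone. PSAT1 and MTHFD2 were above in each of the 3 lines (16.0% of all genes) and SHMT1 and MTHFD1 below (28.9%). Between same-numbered SUDHL6 libraries, PSPH was lower and PHGDH higher with inhibitor in 3 of 3 pairs although their groups overlapped. All other enzymes but ALDH1L2 also kept 1 direction in 3 of 3 pairs. The share over all genes was not counted and the labels do not state a pairing, so nothing is read from these pairs.

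**Figure D1:**
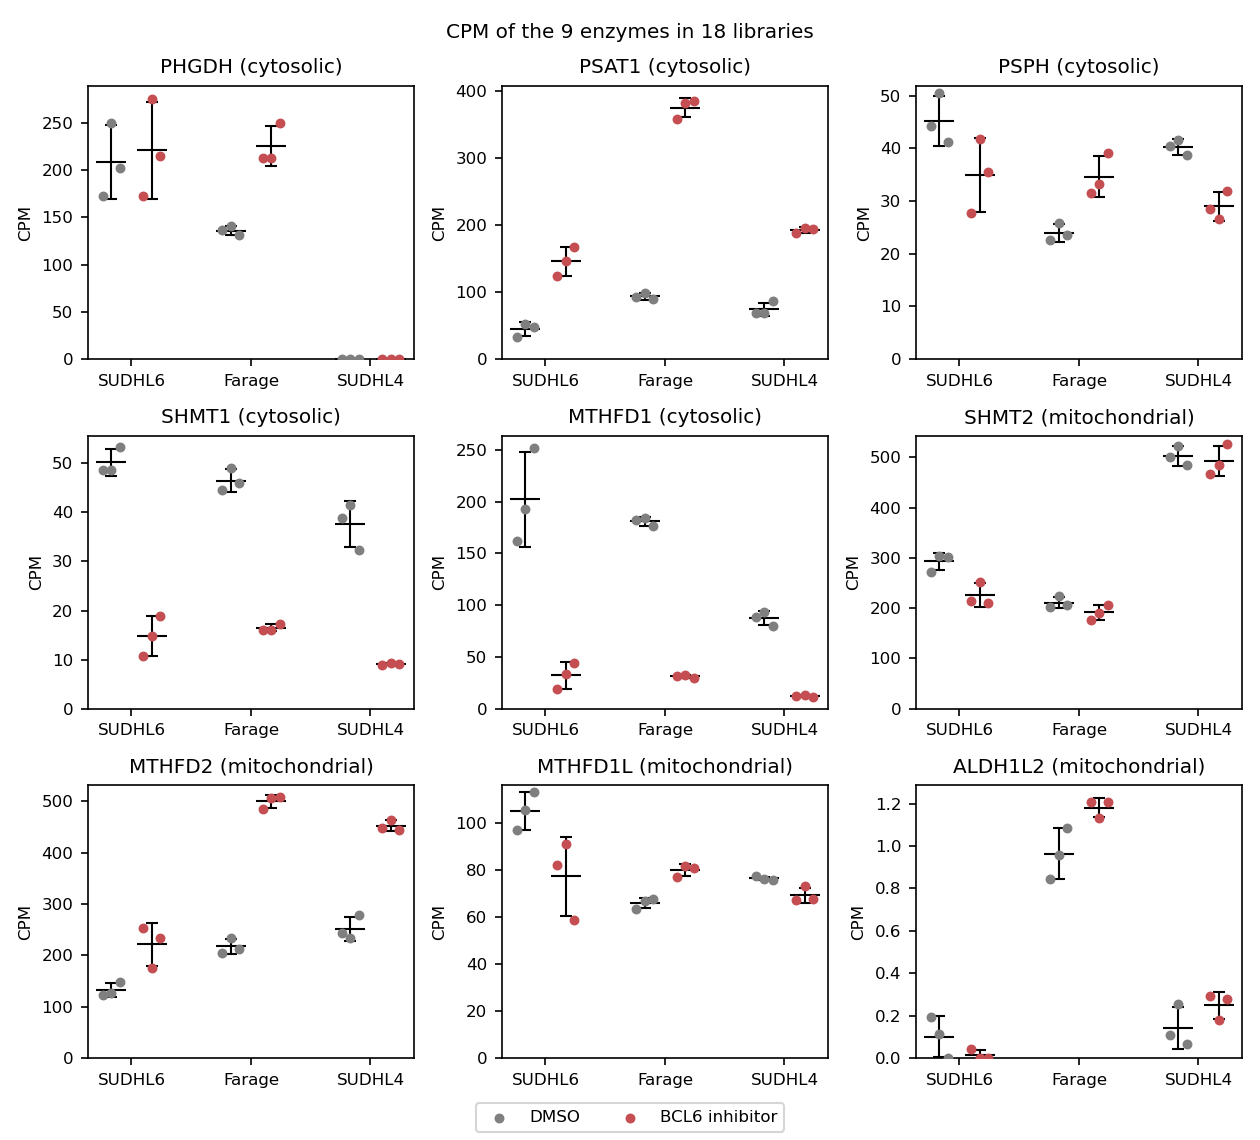
CPM of the 9 enzyme genes (vertical axes from 0, scaled per gene) in the 3 lines (horizontal axis), with grey points for DMSO libraries, red points for inhibitor libraries, a bar for the mean and whiskers for the SD of 3 libraries. PSAT1 and MTHFD2 lie higher with inhibitor and SHMT1 and MTHFD1 lower in each line, and PHGDH lies at 0.1 to 0.2 CPM in SUDHL4.

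Serine synthesis opens with PHGDH, the phosphoglycerate dehydrogenase. In SUDHL6 its DMSO replicates 1 to 3 read 172.3, 249.9 and 202.1 CPM and its treated replicates 172.9, 275.2 and 214.9 CPM. These groups overlapped, and the change was 0.08 (95% interval -0.23 to 0.38, adjusted p = 0.659), although each treated library was above the DMSO library of the same number. In Farage the DMSO libraries held 136.3, 140.7 and 130.8 CPM and the treated libraries 213.0, 212.8 and 249.9 CPM. Each treated Farage library lay above each DMSO library, a 1.66-fold rise (0.72, SE 0.143, adjusted p = 0.000263).

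SUDHL4 stood apart from both other lines in PHGDH. Its DMSO libraries had 0.11, 0.095 and 0.10 CPM and its treated libraries 0.11, 0.21 and 0.14 CPM, which is 9 and 12 reads in all. By pooled reads, DMSO Farage had 1340 times the level of DMSO SUDHL4 (95% counting interval 707 to 2940) and DMSO SUDHL6 2070 times (1090 to 4540). Those intervals cover counting error only. The change with inhibitor in SUDHL4, 0.07 (adjusted p = 0.71), rests on too few reads to show a change of moderate size. In the fit the DMSO difference from SUDHL4 was 6.96 for Farage (adjusted p = 9.14e-17) and 7.55 for SUDHL6 (adjusted p = 1.17e-16). The sequence before the PHGDH start is shown because the gene is well read in SUDHL6 and Farage and nearly absent in SUDHL4. It is the 250 bases up to the start at chr1:119711684-119711933 (GRCh38.p14, plus strand, from RefSeq), with a CCAAT box in capitals. No sequence of these cells was read.
PHGDH: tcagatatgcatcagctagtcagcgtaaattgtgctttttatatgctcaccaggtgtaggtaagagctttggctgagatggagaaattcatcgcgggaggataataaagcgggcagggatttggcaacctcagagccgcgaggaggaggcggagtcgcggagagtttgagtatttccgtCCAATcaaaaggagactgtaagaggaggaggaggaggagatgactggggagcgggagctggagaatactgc

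PSAT1, the aminotransferase, rose most of the 9 in each line. SUDHL6 had 32.59, 52.71 and 47.87 CPM in DMSO and 123.4, 146.8 and 167.1 CPM with inhibitor. Farage went from 92.19, 99.03 and 89.00 CPM to 358.5, 382.3 and 384.7 CPM. In SUDHL4 the DMSO libraries held 68.38, 69.09 and 85.85 CPM and the treated libraries 187.7, 194.9 and 194.6 CPM. No treated library overlapped a DMSO library of its line. Mean CPM rose 3.28-fold in SUDHL6 (1.71, SE 0.143, adjusted p = 3.73e-08), 4.02-fold in Farage (2.0, adjusted p = 4.4e-09) and 2.58-fold in SUDHL4 (1.37, adjusted p = 2.78e-07). The mean response of 1.69 (SE 0.0824, adjusted p = 1.23e-11) ranked 178th from the highest of the 12769 genes.

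PSPH, the phosphatase that ends serine synthesis, moved in different directions. It fell in SUDHL6 from 44.22, 50.44 and 41.12 CPM to 27.75, 41.79 and 35.51 CPM (-0.38, SE 0.127, adjusted p = 0.0155), with 1 treated library inside the DMSO range. In SUDHL4 it fell from 40.43, 41.67 and 38.69 CPM to 28.41, 26.62 and 31.94 CPM (-0.46, adjusted p = 0.00379), with no overlap. In Farage it rose from 22.54, 25.89 and 23.62 CPM to 31.60, 33.26 and 39.06 CPM (0.51, adjusted p = 0.00196), also with no overlap. The treated levels of SUDHL6 and Farage were thus close, at 35.02 ± 7.03 and 34.64 ± 3.92 CPM (SD, n = 3), after DMSO levels of 45.26 ± 4.75 and 24.01 ± 1.71 CPM. The fall in SUDHL6 was not called after median-of-ratios scaling (-0.20, adjusted p = 0.0986), with that line alone in the fit (adjusted p = 0.12), or without DMSO replicate 2 (-0.30, adjusted p = 0.0759) or treated replicate 1 (-0.22, adjusted p = 0.0957), and the fall in SUDHL4 was not called after that scaling (-0.17, adjusted p = 0.156). Neither fall was called with edgeR (adjusted p = 0.139 and 0.209) or DESeq2 (adjusted p = 0.113 and 0.183). PSPH, SHMT1 and MTHFD1 each have a named pseudogene in the human gene table (PSPHP1, SHMT1P1 and MTHFD1P1), and the sources used here do not give how reads were shared with it.

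The cytosolic folate enzymes fell furthest. MTHFD1, the trifunctional enzyme, had 162.0, 192.9 and 251.9 CPM in SUDHL6 DMSO and 18.76, 33.57 and 44.45 CPM with inhibitor. Farage went from 182.4, 184.6 and 176.4 CPM to 31.41, 32.84 and 29.91 CPM, and SUDHL4 from 88.77, 93.13 and 79.79 CPM to 11.84, 13.53 and 11.66 CPM. The highest treated library of each line lay far under its lowest DMSO library. Mean CPM in DMSO was 6.25 times the treated level in SUDHL6 (-2.67, SE 0.211, adjusted p = 2.2e-08), 5.78 times in Farage (-2.49, adjusted p = 2.85e-08) and 7.04 times in SUDHL4 (-2.72, adjusted p = 1.01e-08). Its mean response, -2.63 (SE 0.122, adjusted p = 7.11e-12), ranked 20th from the lowest of 12769. None of the 3 pairs of lines gave a called difference in its response, with 95% intervals of -0.81 to 0.46 for SUDHL6 minus Farage, -0.87 to 0.40 for SUDHL4 minus Farage and -0.58 to 0.69 for SUDHL6 minus SUDHL4.

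SHMT1, the cytosolic serine hydroxymethyltransferase, behaved likewise at lower levels. It went from 48.69, 48.67 and 53.44 CPM to 10.63, 14.79 and 18.96 CPM in SUDHL6. In Farage it went from 44.55, 49.02 and 45.97 CPM to 16.09, 16.01 and 17.27 CPM, and in SUDHL4 from 38.93, 41.42 and 32.32 CPM to 8.85, 9.36 and 9.16 CPM. Again no treated library reached the DMSO range. DMSO levels were 3.4, 2.82 and 4.12 times the treated levels in that order of lines (-1.73, -1.44 and -1.92, SE 0.143 each, adjusted p = 3.3e-08, 1.59e-07 and 6.32e-09). Over the 18 libraries the log2 levels of SHMT1 and MTHFD1 had a Pearson r of 0.99, a description over libraries that share 3 lines and 2 treatments.

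SHMT2 carries the same reaction in mitochondria and did not follow SHMT1. In SUDHL6 it had 272.3, 303.7 and 302.5 CPM in DMSO and 214.6, 252.9 and 211.0 CPM with inhibitor (-0.37, SE 0.0832, adjusted p = 0.000794), with no overlap. Farage had 203.1, 224.0 and 205.7 CPM and then 177.2, 191.1 and 207.0 CPM (-0.14, 95% interval -0.31 to 0.04, adjusted p = 0.148). SUDHL4 had 501.5, 522.4 and 484.5 CPM and then 467.7, 485.0 and 525.9 CPM (-0.03, 95% interval -0.21 to 0.15, adjusted p = 0.781). The ranges overlapped in Farage and SUDHL4. The sign depends on the scaling, since the median of all genes itself was -0.24 in the mean response. After median-of-ratios scaling SHMT2 was called higher in SUDHL4 (0.27, adjusted p = 0.00454), its mean response went from -0.18 (adjusted p = 0.00232) to 0.06 (adjusted p = 0.212), and the fall in SUDHL6 was -0.20 (adjusted p = 0.0306), which edgeR did not call (-0.18, adjusted p = 0.0638).

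MTHFD2, the mitochondrial dehydrogenase and cyclohydrolase, rose in each line. SUDHL6 went from 123.4, 126.6 and 149.0 CPM to 254.3, 175.3 and 234.6 CPM. Farage went from 205.7, 234.7 and 213.2 CPM to 485.7, 505.7 and 507.3 CPM, and SUDHL4 from 243.1, 234.4 and 277.8 CPM to 448.7, 464.3 and 443.8 CPM. The lowest treated library was above the highest DMSO library in each line. The rise was 1.66-fold in SUDHL6 (0.72, SE 0.113, adjusted p = 3.2e-05), 2.29-fold in Farage (1.2, adjusted p = 9.9e-08) and 1.8-fold in SUDHL4 (0.85, adjusted p = 4.66e-06). Over the 18 libraries its r with PSAT1 was 0.89, again over libraries that share lines and treatments. SUDHL4 DMSO replicate 3 lay toward the treated libraries in PSAT1, MTHFD2, SHMT1 and MTHFD1, and without it the SUDHL4 changes were 1.47, 0.92, -2.02 and -2.79.

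MTHFD1L, the mitochondrial formate-releasing ligase, had smaller changes. Its DMSO and treated means were 105.1 ± 8.13 and 77.24 ± 16.8 CPM in SUDHL6 (-0.46, SE 0.114, adjusted p = 0.00192), 65.92 ± 2.27 and 79.85 ± 2.49 CPM in Farage (0.27, adjusted p = 0.0418) and 76.33 ± 0.84 and 69.15 ± 3.29 CPM in SUDHL4 (-0.14, adjusted p = 0.285). Treated SUDHL6 replicate 3, one of the shallow libraries, was its lowest value at 58.58 CPM, and without both SUDHL6 replicate 3 libraries the SUDHL6 change was -0.22 (adjusted p = 0.018). It was not called with that line alone in the fit (adjusted p = 0.0764), with edgeR (-0.23, adjusted p = 0.0981) or with DESeq2 (-0.25, adjusted p = 0.0604). The Farage call is marginal: it was lost without any one of the 6 Farage libraries (adjusted p = 0.0574 to 0.112). It was also lost without SUDHL4 DMSO replicate 1 or 2 or treated replicate 1 (0.0504 to 0.0507). The same held with the replicate block (0.0531) and with no filter (0.0573).

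ALDH1L2, which burns the carbon off as carbon dioxide, was at the edge of detection. Farage had 0.846, 0.958 and 1.085 CPM in DMSO and 1.205, 1.13 and 1.207 CPM with inhibitor, from 26 to 37 reads a library (0.15, adjusted p = 0.103). Each treated Farage library was above each DMSO library, but the change was not called. SUDHL4 libraries held 2 to 8 reads of it and SUDHL6 libraries 0 to 5. After median-of-ratios scaling its change was called in Farage (0.28, adjusted p = 0.00446) and SUDHL4 (0.19, adjusted p = 0.044). Its cytosolic relative ALDH1L1 had 0 to 2 reads per group, so no ratio of this pair is given.

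**Figure D2:**
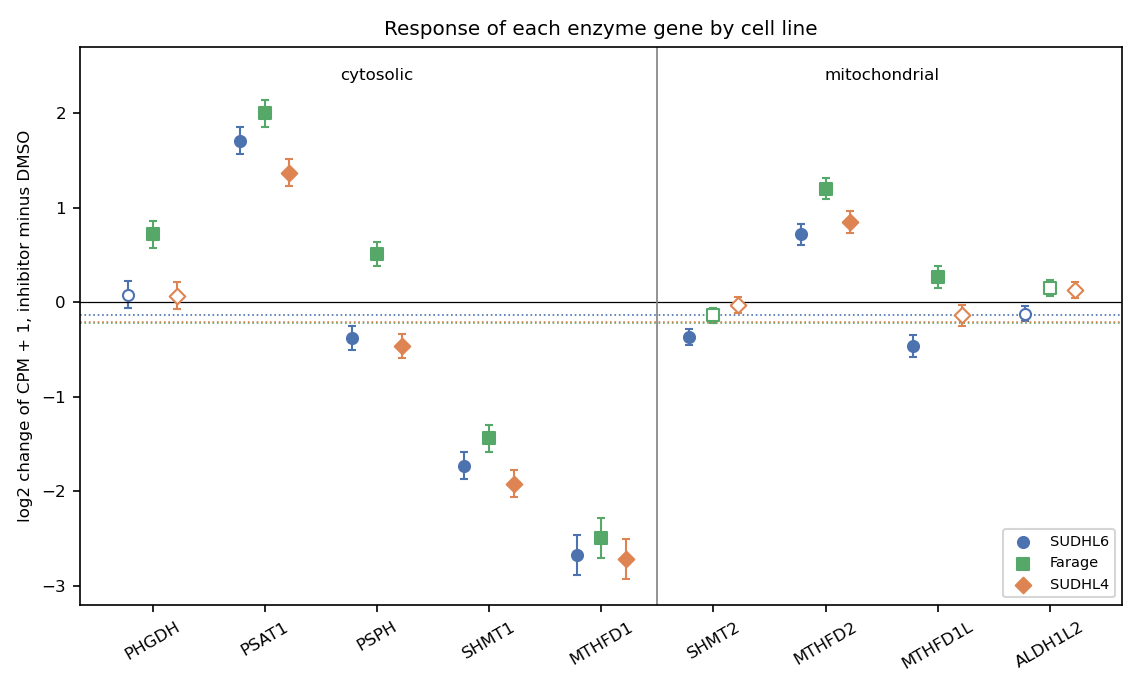
Change of each enzyme gene with inhibitor (vertical axis, log2 of CPM + 1, treated minus DMSO) by line, with SE bars, filled symbols for changes called at an adjusted p under 0.05 and open symbols for the others. Dotted lines give the median change of all genes tested in each line, and the largest changes are the falls of SHMT1 and MTHFD1 and the rises of PSAT1 and MTHFD2.

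The median change of SHMT2, MTHFD2, MTHFD1L and ALDH1L2 was -0.25 in SUDHL6, 0.21 in Farage and 0.05 in SUDHL4. That of PHGDH, PSAT1, PSPH, SHMT1 and MTHFD1 was -0.38, 0.51 and -0.46, beside all-gene medians of -0.13, -0.22 and -0.21. The difference of the medians, mitochondrial minus cytosolic, was 0.13 in SUDHL6, -0.29 in Farage and 0.51 in SUDHL4, and the SD of the same difference between libraries of a group was 0.336, 0.0801 and 0.0905. The SUDHL6 difference is within that spread and was -0.02 without treated SUDHL6 replicate 1. ALDH1L2, with 0 to 8 reads per library in SUDHL6 and SUDHL4, is 1 of the 2 middle values there, and without it the differences were 0.0, -0.23 and 0.43, an alternative chosen after seeing the data. No direction is therefore read for SUDHL6. The SUDHL4 cytosolic median also counts PHGDH, with 3 to 6 reads per library in that line. Medians without PHGDH were not computed, but the other cytosolic changes in SUDHL4 were 1.37, -0.46, -1.92 and -2.72. Their median lies between -0.46 and -1.92, so the size of the SUDHL4 difference depends on PHGDH. The cytosolic set holds the largest rise (PSAT1) and the largest fall (MTHFD1) of the 9 genes. The cytosolic folate enzymes had a median mean response of -2.16 and the serine synthesis enzymes one of 0.29.

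Partner genes of the folate route did part. The CPM ratio of SHMT2 to SHMT1 went from 5.59, 6.24 and 5.66 in SUDHL6 DMSO to 20.2, 17.1 and 11.1 with inhibitor. In Farage it went from 4.56, 4.57 and 4.48 to 11, 11.9 and 12.0, and in SUDHL4 from 12.9, 12.6 and 15.0 to 52.8, 51.8 and 57.4. The mean ratio was 2.76, 2.56 and 4.0 times higher in treated cells in that order of lines. Divided by exon length, mean SHMT2 was 5.43, 4.22 and 12.6 times SHMT1 in DMSO and 15.0, 10.8 and 50.3 times SHMT1 with inhibitor. A ratio within a library does not depend on the scaling of that library.

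The ratio of MTHFD2 to MTHFD1 moved furthest. Its mean in CPM went from 0.67 to 8.02 in SUDHL6, from 1.2 to 15.9 in Farage and from 2.91 to 36.8 in SUDHL4, increases of 12.0, 13.2 and 12.6 times. Treated SUDHL6 replicate 1 had a ratio of 13.6 and its partners 5.22 and 5.28, all above the 0.591 to 0.762 of the DMSO libraries. MTHFD1L over MTHFD1 rose by 5.27, 7.01 and 6.39 times, while MTHFD1L itself had changes of -0.46 to 0.27 in the lines. Annotated lengths of MTHFD1 and MTHFD2 differ so much between exons and coding parts that only the change of these ratios is read here, and not which gene of a pair is more abundant.

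**Figure D3:**
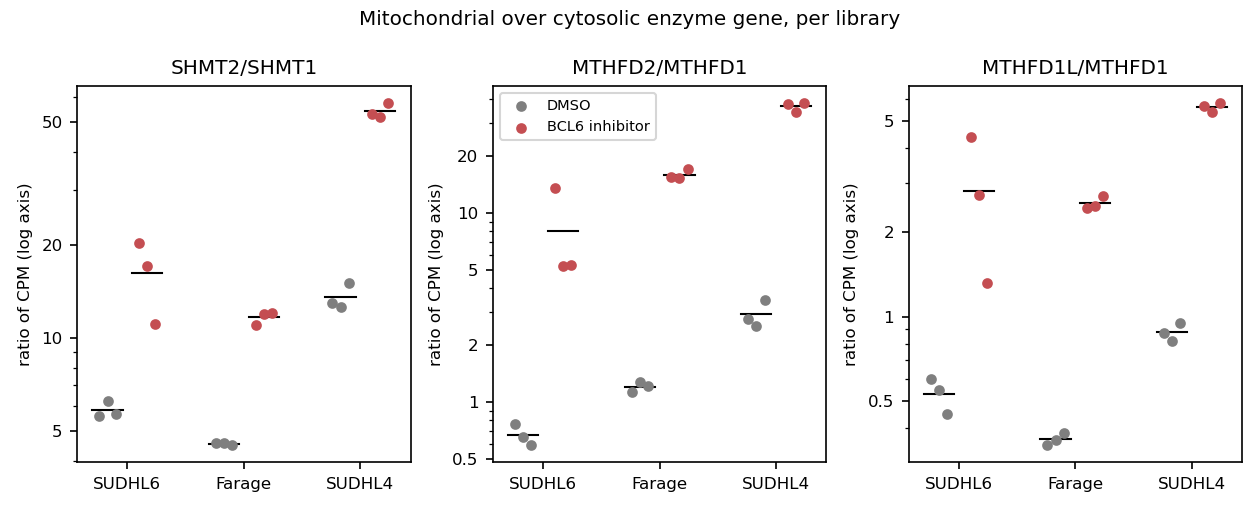
Ratio of CPM of each mitochondrial gene to its cytosolic partner (vertical log axis) in each library, by line (horizontal axis), with grey points for DMSO, red points for inhibitor and a bar for the mean of 3 libraries. Each treated library lies above all DMSO libraries of its line in all 3 pairs, by the widest margin for MTHFD2/MTHFD1.

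The sequences before the starts of the genes that moved together in all 3 lines are shown next, since PSAT1 and MTHFD2 shared a rise and SHMT1 and MTHFD1 a fall. They are RefSeq windows of 250 bases up to the start (GRCh38.p14), and 6 of the 9 genes had one. Capitals mark motif matches on either strand. The windows are chr9:78296875-78297124 for PSAT1 (plus strand), chr2:74198365-74198614 for MTHFD2 (plus), chr17:18363551-18363800 for SHMT1 (minus) and chr14:64388103-64388352 for MTHFD1 (plus).
PSAT1: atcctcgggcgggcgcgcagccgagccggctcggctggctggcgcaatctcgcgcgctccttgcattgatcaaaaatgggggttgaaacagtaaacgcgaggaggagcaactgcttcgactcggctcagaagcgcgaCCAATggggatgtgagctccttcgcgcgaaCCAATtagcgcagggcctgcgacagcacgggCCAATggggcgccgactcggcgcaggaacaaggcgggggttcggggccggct
MTHFD2: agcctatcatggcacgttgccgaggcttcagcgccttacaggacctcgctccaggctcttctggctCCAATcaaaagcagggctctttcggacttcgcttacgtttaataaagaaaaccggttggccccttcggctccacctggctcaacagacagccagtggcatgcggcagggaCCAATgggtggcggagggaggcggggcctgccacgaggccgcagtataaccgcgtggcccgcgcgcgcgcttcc
SHMT1: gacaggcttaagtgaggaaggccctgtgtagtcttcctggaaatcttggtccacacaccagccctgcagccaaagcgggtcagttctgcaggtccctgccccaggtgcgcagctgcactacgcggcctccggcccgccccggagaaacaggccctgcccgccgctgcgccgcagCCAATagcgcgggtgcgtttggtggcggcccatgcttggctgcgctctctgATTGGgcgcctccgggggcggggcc
MTHFD1: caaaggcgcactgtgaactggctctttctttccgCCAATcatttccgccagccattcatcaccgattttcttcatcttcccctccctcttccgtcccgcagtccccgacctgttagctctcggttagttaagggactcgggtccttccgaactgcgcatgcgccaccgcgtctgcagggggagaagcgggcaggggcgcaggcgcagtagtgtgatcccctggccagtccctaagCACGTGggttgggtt
Of 4 motifs searched, CCAAT, which reads ATTGG on the other strand, was in at least 1 window of all 6 genes and in 32.0% of 35116 promoter windows. These shares are per window and not per gene. MTHFD1L, with 4 windows, had more chances to match, and its window at chr6:151006758-151007007 held no motif. PSAT1 held 3 matches, MTHFD2 and SHMT1 2 each and MTHFD1 1. CACGTG, the palindromic E box bound by MYC and related factors, was in MTHFD1, at -15 from the start, and in windows of MTHFD1L, against 6.34% of all windows. TGATGNAA (TTNCATCA), a C/EBP-ATF composite element, was in windows of MTHFD1L as TGATGCAA and in none of the other 5 genes, against 3.14%. TTCCTAGAA (TTCTAGGAA), a core of BCL6 sites, was in none of the 6, against 0.313%. A match is a run of letters in this window and says nothing of binding.

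Before treatment 7 of the 9 enzymes differed between DMSO Farage and SUDHL6 (71.3% of all genes did), 5 between Farage and SUDHL4 (67.1%) and 7 between SUDHL6 and SUDHL4 (68.6%), counts near the background. The 3 comparisons share DMSO libraries. Both Farage counts include ALDH1L2, which passed the filter through Farage alone. Its mean CPM in DMSO Farage was 9.44 times that of SUDHL6 and 6.72 times that of SUDHL4. These levels rest on 83 reads in DMSO Farage, 8 in DMSO SUDHL6 and 13 in DMSO SUDHL4. Because the filter was met through Farage, the tests of these differences are not read. SHMT2 differed between all 3 lines, with 502.8 ± 19.0 CPM in SUDHL4, 292.8 ± 17.8 in SUDHL6 and 210.9 ± 11.4 in Farage, and each step of that order was called (SUDHL6 minus SUDHL4 -0.78, adjusted p = 3.8e-07, and Farage minus SUDHL6 -0.47, adjusted p = 8.75e-05). MTHFD1 was at 202.2 ± 45.7 CPM in SUDHL6 and 181.1 ± 4.24 in Farage, which were not called apart (-0.13, 95% interval -0.58 to 0.31, adjusted p = 0.584), and at 87.23 ± 6.8 in SUDHL4, under both. SHMT1 was at 50.27 ± 2.75, 46.51 ± 2.28 and 37.56 ± 4.7 CPM in SUDHL6, Farage and SUDHL4, and only the outer pair was called (0.42, adjusted p = 0.0162), which was lost without SUDHL4 DMSO replicate 3 (0.32, adjusted p = 0.0864) or SUDHL6 DMSO replicate 3 (0.37, adjusted p = 0.0524).

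MTHFD2 and PSAT1 were lowest in DMSO SUDHL6. MTHFD2 was at 251.8 ± 22.9 CPM in SUDHL4 and 217.9 ± 15.0 in Farage (not called apart, adjusted p = 0.119) and at 133.0 ± 13.9 in SUDHL6. PSAT1 was at 93.41 ± 5.12 in Farage and 74.44 ± 9.89 in SUDHL4 (adjusted p = 0.0512) and at 44.39 ± 10.5 in SUDHL6. PSPH was lowest in Farage, where its level lay under SUDHL6 by -0.88 and under SUDHL4 by -0.72 on the log2 scale (adjusted p = 1.01e-05 and 9.31e-05), and MTHFD1L was highest in SUDHL6. Per kilobase of exon, SHMT2 led in each DMSO group, at 96.7 ± 5.87 CPM per kb in SUDHL6, 69.6 ± 3.76 in Farage and 166 ± 6.26 in SUDHL4. The next 2 were PHGDH and MTHFD2 in SUDHL6 and Farage, and MTHFD2 and PSAT1 in SUDHL4. The same 3 genes led each DMSO group by coding length or longest transcript, although by coding length MTHFD2 came before SHMT2 in Farage.

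The response differed between lines for some enzymes, tested as the difference of the changes. SUDHL6 and Farage differed in 4 of the 9, all lower in SUDHL6 (36.8% of all genes differed, 15.1% in that direction): PSPH by -0.88 (SE 0.18, adjusted p = 0.00118), MTHFD1L by -0.73 (adjusted p = 0.0021), PHGDH by -0.64 (adjusted p = 0.0198) and MTHFD2 by -0.48 (adjusted p = 0.0281). SUDHL4 and Farage differed in 3, all lower in SUDHL4 (37.4% of all genes, 19.7% in that direction): PSPH by -0.97 (adjusted p = 0.000488), PHGDH by -0.65 (adjusted p = 0.0177) and PSAT1 by -0.63 (adjusted p = 0.0219). SUDHL6 and SUDHL4 differed in 1 (35.0%, with 12.5% lower in SUDHL6), SHMT2, by -0.34 (adjusted p = 0.0319). The first 2 comparisons share the Farage libraries. The PHGDH difference of SUDHL4 depends on the added 1, in a line with 3 to 6 reads of the gene per library: with a pseudocount of 0.25 it was -0.53 (adjusted p = 0.0714), and on whole reads edgeR put it at -0.05 (adjusted p = 0.997). The PSAT1 difference was not called without SUDHL4 DMSO replicate 3 (-0.52, adjusted p = 0.06) or Farage DMSO replicate 3 (-0.60, adjusted p = 0.0512).

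Around the 9 enzymes, 80 further genes of folate, serine and glycine metabolism were read, and 69 passed the filter. In the mean response 18 were higher and 44 lower, with a median of -0.57 beside -0.24 over all genes, of which 30.1% were higher and 53.8% lower. The counts of each list below are to be read against those shares. All 7 tested genes of the list of folate carriers and storage were lower in the mean response, and 5 of them were called lower in Farage and 5 in SUDHL4. They include SLC19A1, the reduced folate carrier (-2.09, 41.01 to 5.157 CPM in SUDHL6). FPGS, which adds the glutamate tail that keeps folate in the cell, was at -1.29. The list also holds SFXN1 (-0.29), a mitochondrial serine carrier, which was not called in Farage (0.02) or SUDHL4 (-0.29). All 4 genes of thymidylate synthesis were lower: TYMS, thymidylate synthase (-1.87), DTYMK (-1.91), DUT (-1.50) and TK1 (-1.28). All 12 tested genes of purine synthesis were lower, with a median of -1.27, and they include ATIC (-1.78) and PAICS (-1.63), which act in the chain that takes up formyl groups.

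Folate interconversion outside the 9 enzymes was mixed, with 2 of 6 tested genes higher and 3 lower. MTFMT, which formylates the mitochondrial initiator methionyl-tRNA, fell (-0.87). The methionine cycle itself had 1 of 8 tested genes higher and 4 lower, among them MAT2A (-1.08) and MTR (-0.88). In glycine cleavage all 4 were called lower, but GLDC had group means above 1 CPM in Farage alone (8.11 and 1.25 CPM), with a sign that turned with edgeR (0.23) and DESeq2 (0.33). GCSH had no group mean above 1.001 CPM. DLD (-0.73), which also serves other complexes, was the member read well in all lines, and its change in SUDHL6 was not called (-0.18, adjusted p = 0.0644).

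Of 6 tested serine and glycine carriers 4 were higher in the mean response and 1, SLC25A38, lower (-0.30), with SLC38A2 (2.10), SLC6A9 (1.99), SLC38A1 (1.05) and SLC1A5 (0.97) called higher in each line. The sixth, SLC1A4, was not called in the mean (-0.16, adjusted p = 0.172) and was lower in SUDHL6 (-0.75, adjusted p = 0.00165). SLC25A38 and SLC1A4 were named after their values were seen. Of 12 tested genes in the list of serine and glycine use 4 were higher and 6 lower. The largest rise was that of CTH (3.10), which makes cysteine from cystathionine and does not itself take up serine. The largest fall was that of GATM, the first enzyme of creatine synthesis (-1.62). Of 10 regulators of the amino acid response 7 were higher and 3 lower. The 3 lower were EIF2AK4 (-0.83), EIF2AK2 (-0.80) and EIF2AK1 (-0.69), with EIF2AK4 and EIF2AK1 called lower in each line. These were named after their values were seen. ATF4, a transcription factor in this list, rose (1.16). Its DMSO and treated means were 280.3 and 527.4 CPM in SUDHL6, 156.3 and 451 CPM in Farage, and 202.7 and 421 CPM in SUDHL4. Its part in the changes of the enzymes was not tested. TRIB3 (2.86), CHAC1 (2.85) and EIF2AK3 (1.94) were also higher. Of all 69 genes, 21.7% were higher in each line and 46.4% lower in each line, beside the 14.7% and 28.3% over all genes given above.

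**Figure D4:**
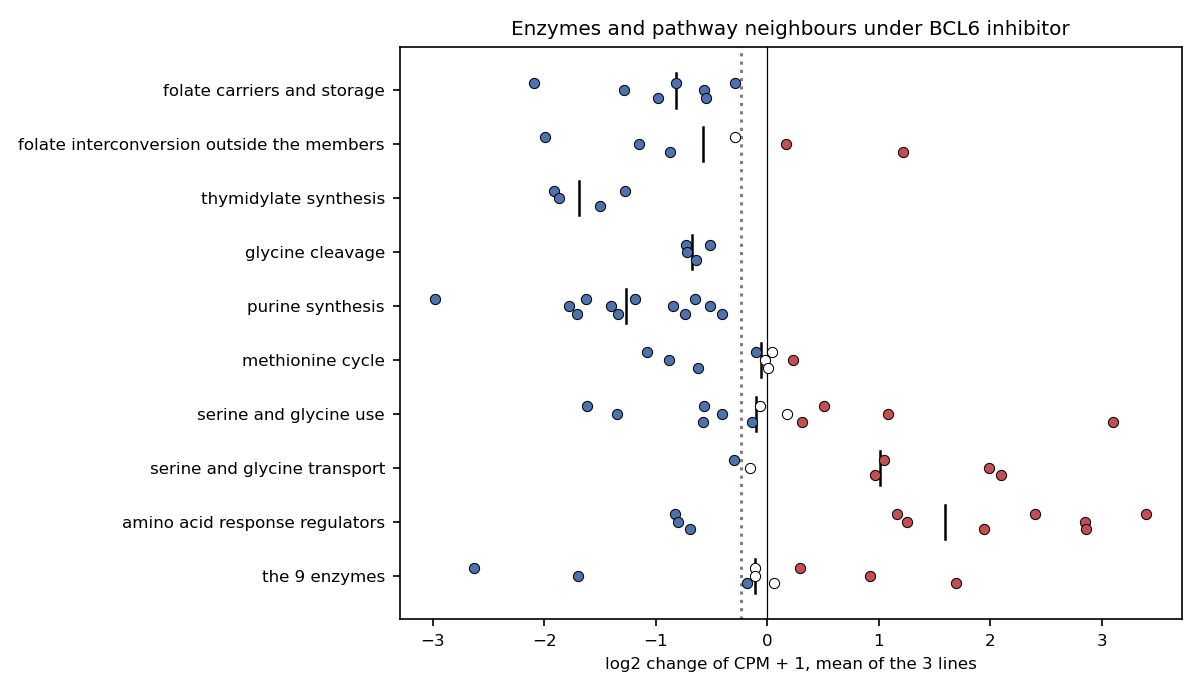
Mean response of the 3 lines (horizontal axis, log2 of CPM + 1, treated minus DMSO) of each tested gene in 9 lists of pathway neighbours and of the 9 enzymes (rows), with red points called higher, blue points called lower, white points not called, a bar for the median of each list and a dotted line for the median of all genes tested. The lists of folate carriers and storage, thymidylate synthesis and purine synthesis lie wholly below 0. Most serine and glycine carriers and amino acid response regulators lie above it.

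Genes most like each enzyme over the 18 libraries were found by Pearson r of log2(CPM + 1) among genes with a mean of at least 5 CPM. The libraries share 3 lines, 2 treatments and unequal depth, so r is a description. For SHMT1 they were TYMS (0.99), EIF2B2 (0.99) and PPM1G (0.989), and for MTHFD1 they were ANAPC4, EIF2B2 and SAAL1 (0.988 each). For PSAT1 they were NQO1 (0.975), ZNF148 (0.971) and NIPA2 (0.966), and for MTHFD2 they were PKNOX1 (0.985), CSRNP1 (0.979) and SUOX (0.976). PHGDH was matched by UCHL1 (0.996), ZNF136 (0.995) and KIF21A (0.993), and SHMT2 by ADD2 (0.982), RPRD1A (0.977) and BANK1 (0.975). The closest to PSPH was RNF8 (0.887) and the closest to MTHFD1L was GREB1 (0.911). ALDH1L2 was under the level limit.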

How the data were processed

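RNA was sequenced from 18 libraries, 3 per group. Per the labels a TruSeq RNA kit was used, and the description of 1 sample names Rsubread. Per the submitters' processing notes, reads were aligned with STAR to hg19. The sources used here do not give versions, the gene release, the strand setting or the handling of reads that match several places, so reads of overlapping or near-identical genes cannot be told apart. The authors deposited CPM for 23250 symbols. In each library 100% of the values were whole multiples of 1 read within 0.01 reads. The listed genes held 74.63 to 80.72% of the reads the CPM were divided by.

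limma 3.58.1 (R 4.3.3) with an intensity trend was fitted to log2(CPM + 1) over 12769 genes with at least 1 CPM in at least 3 libraries, with a mean for each of 6 groups and 12 residual degrees of freedom. Tests were two-sided, adjusted by Benjamini-Hochberg over all genes, called under 0.05. SE and intervals are the model's, and levels are mean CPM ± SD. One spread per gene is shared across lines, so a line of wider spread can get smaller p-values than alone. The fit was tested on simulated data with the same spread in all groups, which cannot show how it behaves when lines differ in spread. No libraries were duplicates: a chi-square over genes between replicates, divided by its degrees of freedom, was 1.82 to 50.17. In SUDHL6 the deviations of same-numbered treated and DMSO libraries correlated at 0.42, 0.49 and 0.63, but not in Farage (-0.19 to 0.17) or SUDHL4 (-0.07 to 0.03). The labels do not say what a number shares, and replicate 3 was the shallowest library in both SUDHL6 groups. Lengths are from GENCODE 29.

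Alternatives were a pseudocount of 0.25, no filter, a mean of at least 5 CPM, median-of-ratios scaling, a replicate block, only the compared lines in the fit, edgeR 4.0.16 and DESeq2 1.42.0 on whole reads, each library left out and both SUDHL6 replicate 3 libraries left out. The 9 enzymes and the lists were chosen with earlier results of these data known. Named were all 9, up to 4 genes of each list called in the mean response with the smallest p, and the 3 most alike genes per enzyme, of which some are summarised. For PSPH and MTHFD1L only the closest is given, and some genes that the rule names are not reported here. After the data were seen, medians without ALDH1L2 were added as an alternative. MTHFD2L and ALDH1L1, relatives of 2 of the enzymes, were added after their values were seen.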

Additional observations from a re-analysis of the deposited data

Results flagged for a closer look

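The response to the inhibitor differed between lines, by a test of the difference itself, in 8 cases, given as differences of log2 changes from limma. Between SUDHL6 and Farage these were PHGDH (-0.64, adjusted p = 0.0198), PSPH (-0.88, adjusted p = 0.00118), MTHFD2 (-0.48, adjusted p = 0.0281) and MTHFD1L (-0.73, adjusted p = 0.0021). The PSPH and MTHFD1L changes had opposite signs in these lines, -0.38 and -0.46 in SUDHL6 and 0.51 and 0.27 in Farage. Between SUDHL4 and Farage they were PHGDH (-0.65, adjusted p = 0.0177), PSAT1 (-0.63, adjusted p = 0.0219) and PSPH (-0.97, adjusted p = 0.000488). Between SUDHL6 and SUDHL4 it was SHMT2 (-0.34, adjusted p = 0.0319).

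The PSPH differences and that of MTHFD1L between SUDHL6 and Farage were called in all alternatives run. With only the compared lines in the fit the calls between SUDHL6 and Farage of PHGDH (adjusted p = 0.056) and MTHFD2 (0.0636) and that of SHMT2 (0.0638) were lost. MTHFD2 was also lost with edgeR (-0.50, adjusted p = 0.0598), and SHMT2 without both SUDHL6 replicate 3 libraries (-0.27, adjusted p = 0.102). PHGDH between SUDHL4 and Farage was lost with a pseudocount of 0.25 (-0.53, adjusted p = 0.0714), edgeR (-0.05, adjusted p = 0.997) and DESeq2 (-0.05, adjusted p = 0.97). For PHGDH between SUDHL6 and Farage the call was lost without SUDHL6 DMSO replicate 2 (-0.50, adjusted p = 0.0574) or treated Farage replicate 3 (-0.57, adjusted p = 0.0555), and PHGDH between SUDHL4 and Farage was also lost without the latter (-0.58, adjusted p = 0.0518). PSAT1 was lost without SUDHL4 DMSO replicate 3 (-0.52, adjusted p = 0.06) or Farage DMSO replicate 3 (-0.60, adjusted p = 0.0512). MTHFD2 was lost without SUDHL6 DMSO replicate 3, treated SUDHL6 replicate 2, Farage DMSO replicate 1 or 3, or treated Farage replicate 2 or 3 (-0.32 to -0.47, adjusted p = 0.052 to 0.0696). SHMT2 was lost without DMSO replicate 2 or 3 or inhibitor replicate 1 or 3 of SUDHL6, SUDHL4 DMSO replicate 1 or 3, or treated SUDHL4 replicate 3 (-0.30 to -0.34, adjusted p = 0.0543 to 0.0797).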

How the results depend on the processing

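The calls of PSAT1, MTHFD2, SHMT1 and MTHFD1 in each line held under all alternatives run. Of 1620 values of the enzymes with 1 library left out, 1563 kept their direction and side of the threshold, 31 lost a call, 26 gained one and none reversed. Reversals came with median-of-ratios scaling or with the count models, which change both the scaling and the scale of the values: SHMT2 in SUDHL4 from -0.03 to 0.27 with median-of-ratios, 0.29 with edgeR and 0.28 with DESeq2, and its mean response from -0.18 to 0.06, 0.07 and 0.07 (adjusted p = 0.212, 0.163 and 0.135). The mean response of PSPH went from -0.11 to 0.14 with edgeR and 0.14 with DESeq2, that of MTHFD1L from -0.11 to 0.15 with DESeq2, and that of GLDC from -0.64 to 0.23 with edgeR and 0.33 with DESeq2. Median-of-ratios scaling moved the all-gene median from -0.238 to -0.051 and the share of calls that were higher from 35.8 to 47.1%. Under median-of-ratios scaling alone GLDC was at -0.58, PSPH at 0.12 and MTHFD1L at 0.13, the last 2 not called. The cause was not tested further.

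Counts of enzymes called moved as follows. Lower in SUDHL6, 5 became 3 with only the compared line in the fit, 2 with edgeR and 3 with DESeq2. Higher in SUDHL4, 2 became 4 with median-of-ratios scaling, and higher in the mean response 3 became 5 with DESeq2. With only the compared lines in the fit, differing responses went from 4 to 2 for SUDHL6 and Farage, from 3 to 6 for SUDHL4 and Farage and from 1 to 0 for SUDHL6 and SUDHL4, and DMSO Farage and SUDHL4 from 5 to 9. Without both SUDHL6 replicate 3 libraries, SUDHL4 and Farage gave 5, SUDHL6 and SUDHL4 gave 0, and DMSO Farage and SUDHL4 gave 8. SUDHL6 and SUDHL4 gave 2 with edgeR and with DESeq2. With the replicate block, SUDHL6 and SUDHL4 gave 2 in place of 1 (PSAT1 was added, 0.34, adjusted p = 0.0484), MTHFD1L in Farage was lost (adjusted p = 0.0531), and no count moved by over 1.5 times otherwise. In Farage and SUDHL4 the numbers did not pair the samples. In SUDHL4 the mitochondrial minus cytosolic median went from 0.51 to 0.64 with a pseudocount of 0.25 and to 0.40 with median-of-ratios scaling.

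With 1 library left out, counts ranged from 2 to 2 higher and 4 to 5 lower in SUDHL6, 4 to 5 and 2 to 2 in Farage, 2 to 2 and 3 to 3 in SUDHL4, and 3 to 3 and 3 to 5 in the mean response. Differing responses ranged from 2 to 5 for SUDHL6 and Farage, 2 to 5 for SUDHL4 and Farage and 0 to 2 for SUDHL6 and SUDHL4. Differences in DMSO ranged from 7 to 7 (Farage and SUDHL6), 5 to 8 (Farage and SUDHL4) and 6 to 7 (SUDHL6 and SUDHL4). Neighbours ranged from 17 to 19 higher and 43 to 45 lower. The mitochondrial minus cytosolic median ranged from -0.02 to 0.23 in SUDHL6, -0.35 to -0.22 in Farage, 0.48 to 0.55 in SUDHL4 and 0.02 to 0.12 in the mean. Without treated SUDHL6 replicate 2 the mean response had 5 enzymes lower, and differences of SUDHL4 and Farage went to 5 without any 1 treated SUDHL6 library. Depth limits PHGDH in SUDHL4 and ALDH1L2 in SUDHL6 and SUDHL4.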

Other observations

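MTHFD2L, the other mitochondrial dehydrogenase of the MTHFD2 type, was read at 1.30 to 5.83 CPM per group mean. It was lower with inhibitor in SUDHL6 (2.003 ± 0.133 to 1.301 ± 0.395 CPM, -0.40, adjusted p = 0.00765 by limma) and higher in Farage (3.633 ± 0.122 to 5.825 ± 0.518 CPM, 0.56, adjusted p = 0.000575) and SUDHL4 (3.736 ± 0.452 to 5.077 ± 0.321 CPM, 0.36, adjusted p = 0.013). MTHFD2 itself was higher in each line. MAT2B, the regulatory partner of MAT2A, had a mean response of 0.23 while MAT2A had -1.08. SARS2, the mitochondrial seryl-tRNA ligase, fell in each line (-1.35 in the mean), while SARS was higher in each line (0.51 in the mean). SPTLC1, a subunit of the enzyme that joins serine to a fatty acid in sphingolipid synthesis, was higher in each line (1.08 in the mean). SPTLC2 was not called in the mean (-0.07), with calls lower in SUDHL6 (-0.25) and higher in Farage (0.15). SARS and SPTLC2 were named after their values were seen.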
